A study of Homo sapiens with 2 samples.

Results

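The 38 HOX cluster genes described here were the members of the HOXA, HOXB, HOXC and HOXD clusters whose RefSeq accession was carried by a probe of the array. Membership was set by that name and by no measured value, although the set was chosen with earlier results of these data known. The 38 members had 44 probes among 31104 probes that could be named, which stood for 22439 genes in all and 18216 protein-coding genes. There were 10 members in HOXA, 10 in HOXB, 9 in HOXC and 9 in HOXD. RNA was taken from the human embryonic stem cell line H9, grown without feeder cells on Matrigel, a basement membrane extract, in TeSR-E8 medium. Substate 1 cells were harvested at passage 35 and came from typical colonies rich in R-10G, an epitope on keratan sulphate of the cell surface, and with hardly any vimentin, an intermediate filament protein of mesenchymal cells. Substate 2 cells were harvested at passage 50 and came from colonies with gaps between the cells, in which R-10G was reduced and vimentin was abundant. Each substate was represented by 1 single-colour array, so that the substates could not be compared by a test, no value has a replicate check, and passage and substate cannot be told apart. Both substates came from 1 cell line. The authors moved H9 cells from vitronectin to Matrigel at passage 35, so time on Matrigel may differ between the arrays as well. It cannot be told apart from substate either.

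HOX genes encode homeobox transcription factors that give cells their position along the head-to-tail axis. In mammals they lie in 4 clusters, and genes at the same place in different clusters are paralogues and carry the same number. During development they are switched on in order, from the 3′ end of each cluster (low numbers, anterior limits) to the 5′ end (high numbers, posterior limits). Retinoic acid, WNT and FGF signals and the CDX factors start this sequence. In pluripotent cells the clusters are typically held silent by Polycomb complexes, which mark their CpG-rich promoters with trimethylated histone H3 lysine 27, whereas complexes of the MLL family write the opposing lysine 4 mark.

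To show what such promoters look like, 4 of them are printed below as the 250 bases before the start of the gene. A promoter entry was found for 20 of the 38 members in the RefSeq table of GRCh38.p14, and the other 18 had none there. The sequences are read 5′ to 3′ on the strand of the gene, with each CpG dinucleotide in capitals. HOXA9 (chr7:27165538-27165787, minus strand) and HOXA10 (chr7:27179862-27180111, minus strand) are shown because these genes had the brightest probes. HOXA13 (chr7:27200092-27200341, minus strand) and HOXD4 (chr2:176151300-176151549, plus strand) are shown because they had the most and the fewest CpG dinucleotides among the 20 members with an entry.
HOXA9: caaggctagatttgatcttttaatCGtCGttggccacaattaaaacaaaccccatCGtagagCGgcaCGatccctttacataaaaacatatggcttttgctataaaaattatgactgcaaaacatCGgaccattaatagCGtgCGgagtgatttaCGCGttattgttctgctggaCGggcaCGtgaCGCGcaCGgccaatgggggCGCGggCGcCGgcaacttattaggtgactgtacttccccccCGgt
HOXA10: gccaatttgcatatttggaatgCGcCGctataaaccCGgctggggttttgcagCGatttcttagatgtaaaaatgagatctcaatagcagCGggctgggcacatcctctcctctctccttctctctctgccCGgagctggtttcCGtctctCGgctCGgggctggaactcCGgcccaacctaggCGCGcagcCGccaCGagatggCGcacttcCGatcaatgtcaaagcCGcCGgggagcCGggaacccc
HOXA13: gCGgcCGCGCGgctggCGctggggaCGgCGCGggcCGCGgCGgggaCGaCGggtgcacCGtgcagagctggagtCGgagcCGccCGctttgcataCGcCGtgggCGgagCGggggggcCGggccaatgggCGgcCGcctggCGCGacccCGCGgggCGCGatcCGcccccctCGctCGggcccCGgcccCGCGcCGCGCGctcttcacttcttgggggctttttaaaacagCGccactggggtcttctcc
HOXD4: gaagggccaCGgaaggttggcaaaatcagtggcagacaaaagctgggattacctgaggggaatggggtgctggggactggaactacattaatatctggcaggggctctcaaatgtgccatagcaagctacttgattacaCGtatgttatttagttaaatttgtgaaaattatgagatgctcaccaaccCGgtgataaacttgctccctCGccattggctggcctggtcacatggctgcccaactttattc

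In these windows HOXA9 had 20 CpG dinucleotides, HOXA10 had 19, HOXA13 had 40 and HOXD4 had 4. The CCAAT box and the TATA box are short sequences of the basal promoter. Letters reading CCAAT were found in each of the 4 windows, 55 bases before the start in HOXA9, 249 bases before it in HOXA10, 128 bases before it in HOXA13 and, on the other strand, 38 bases before it in HOXD4. Letters reading TATAAA occurred 150 bases before the start in HOXA9 and 222 bases before it in HOXA10, and did not overlap the CCAAT letters. Over the full 300 bases of each entry, from 250 before to 50 after the start, and with both strands read, CCAAT was present in 17 of the 20 HOX promoters (85%) and in 36.4% of the 15843 protein-coding promoters of the same length. TATAAA was present in 4 HOX promoters (20%) and in 9.63% of all protein-coding promoters. HOXC4 and HOXC5 share 1 entry, so the 20 promoters held 19 different sequences.

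The promoters found for undetected HOX genes, most of them in HOXA and HOXD, held many CpG dinucleotides. The 20 HOX promoters had a median of 22.5 CpG dinucleotides in 300 bases, with a range of 4 to 44. Of these entries 9 were in HOXA, 8 in HOXD, 2 in HOXC and 1 in HOXB. The sequence shared by the HOXC entries had 15 CpG dinucleotides and the HOXB entry had 11, so those clusters were hardly covered. Protein-coding genes that were detected on at least 1 array had a median of 25 (11989 genes), and those detected on neither array had a median of 5 (2641 genes). Among the 18 HOX genes with an entry that were detected on neither array the median was 23.5, and 8 of the 18 were at or above the median of the detected genes. Only HOXD4, with 4, was at or below the median of the undetected genes. The median GC content of the HOX promoters was 58.0% and that of all protein-coding promoters 62.7%. These are descriptions of the reference sequence, and neither methylation nor histone marks were measured here.

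The cells carried the markers of their label. All 8 pluripotency markers with a named probe were detected on both arrays, among them POU5F1, the central factor of the pluripotent state, whose brighter probe read 168160 in substate 1 and 181073 in substate 2. NANOG had the largest difference of the 8, at 0.42 on the log2 scale (11911 and 13991). Of the 10 markers of mesenchyme and fibroblasts, cells that express HOX genes by their site of origin, 4 were detected on each array. Their brightest signals ran from 17.0 to 3207 in substate 1 and from 23.4 to 2003 in substate 2, and COL3A1, DCN, LUM, POSTN, PRRX1 and COL6A3 were not detected on either array. The 4 did not move one way. The collagen genes COL1A1 (987 and 618) and COL1A2 (3207 and 2003) had differences of -0.49 and -0.50, while TWIST2 (341 and 445 at 1 of its 2 probes) had one of 0.57. PDGFRA, a receptor of mesenchymal cells, had the largest, 0.65, near the floor of detection (17.0 and 23.4). It fell to 0.08 with normexp background correction, where it was no longer the largest. That correction adds 50 to each intensity, which narrows differences between dim signals. Whether such cells contributed to HOX signals was not tested. In a bulk sample, fewer cells of a type and less RNA per cell cannot be told apart.

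Almost no HOX gene was detected in either substate. A gene was called detected where at least 1 of its probes carried the scanner software's mark for a spot well above background. On the substate 1 array 2 of the 38 members (5.26%) were detected, HOXA9 and HOXA10, against 80.1% of the 18216 protein-coding genes. On the substate 2 array 3 of the 38 (7.89%) were detected, HOXA5, HOXA9 and HOXA10, against 78.6% of protein-coding genes. The other 35 members were detected on neither array, as were 3434 protein-coding genes (18.9%). Most members had only 1 probe, and of the 34 such members none was detected in substate 1 and 1 in substate 2, where 76.3% and 74.7% of protein-coding genes with 1 probe were. A probe on 1 array was read by 1 spot, and no HOX spot was saturated or an outlier.

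**Figure D1:**
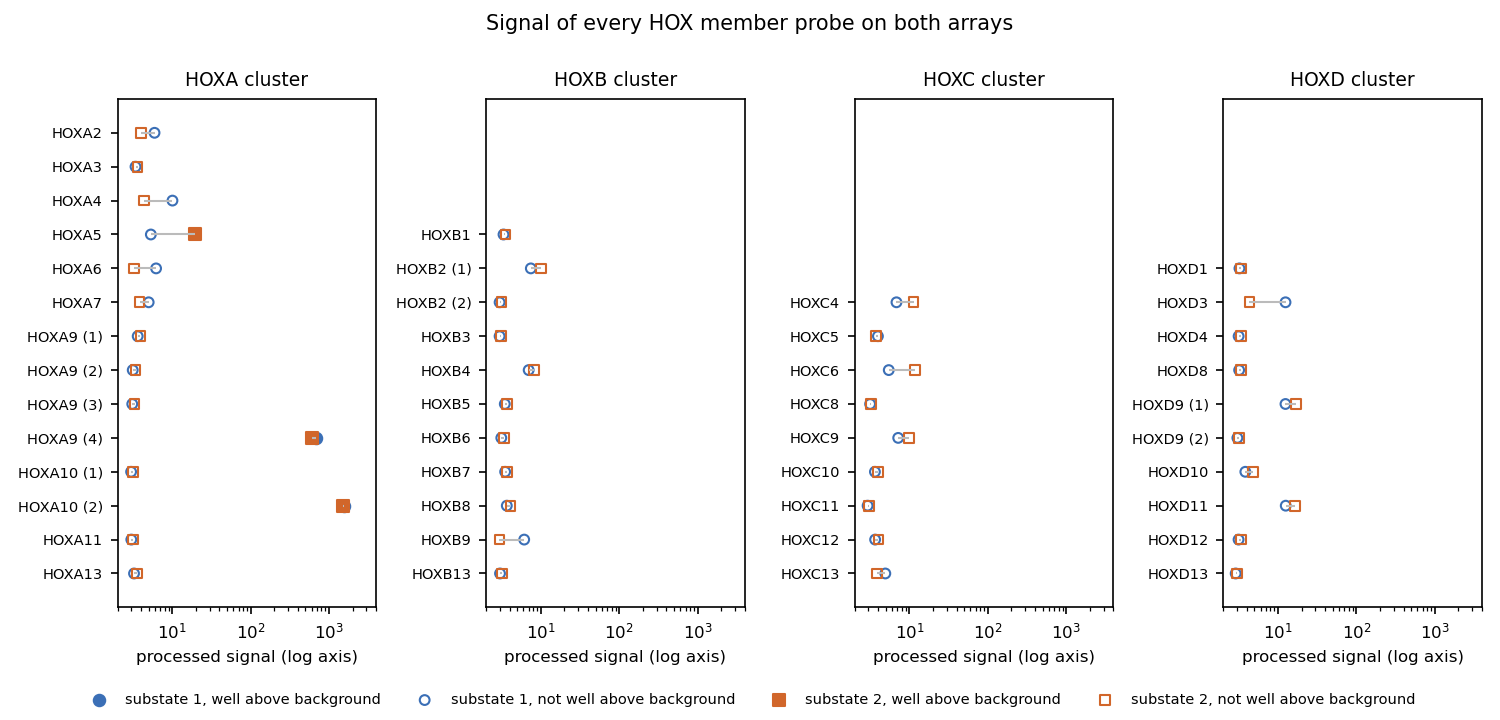
Processed signal (log axis) of each of the 44 HOX probes on the substate 1 array (circles) and the substate 2 array (squares), by cluster and in order of paralogue number; numbers in brackets tell apart the probes of 1 gene. Filled symbols were well above background: 1 probe each of HOXA9 and HOXA10 on both arrays and HOXA5 on the substate 2 array, while all other symbols sit between 2.88 and 16.8.

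HOXA10, a posterior gene of the HOXA cluster known from the patterning of limbs and the uterus, had the brightest HOX probe. That probe read 1552 ± 155 in substate 1 and 1492 ± 149 in substate 2, where the error is that of the scanner software's model for the spot and not a spread between samples. It was brighter than 88.4% and 88.7% of all probes. After each array was scaled to its 75th percentile, its difference was 0.13 ± 0.20 on the log2 scale (substate 2 minus substate 1), so the arrays did not differ there by more than the spot error. The other HOXA10 probe read 2.98 and 3.17, at the level of the negative control spots, whose median was 3.31 in substate 1 and 3.54 in substate 2.

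HOXA9, its neighbour, is a posterior gene best known for its part in blood stem cells and leukaemia, and it showed the same split between probes. One of its 4 probes read 679 ± 67.9 in substate 1 and 613 ± 61.4 in substate 2. The normalised difference was 0.04 ± 0.20 on the log2 scale, and its sign turned under 3 of 6 alternative ways of processing the arrays, which gave -0.03 to 0.08. The other 3 HOXA9 probes read 3.08 to 3.62 in substate 1 and 3.30 to 3.92 in substate 2. Both arrays thus gave a strong signal at a single probe of each gene and none above background at the rest.

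Such a gap was uncommon but not unique to these genes. The brightest probe exceeded the next one 495-fold for HOXA10 and 171-fold for HOXA9 (geometric mean of both arrays), against a median of 3.51-fold over 5316 protein-coding genes with more than 1 probe. These ratios stood at the 99.0th and 97.4th percentiles, and 140 of the 5316 genes (2.63%) had a ratio at least as high as that of HOXA9. Among the 5316 genes, 586 (11.02%) had exactly 1 probe detected on each array and 3618 (68.1%) had all of them detected on both. In the RefSeq table HOXA9 and HOXA10 lie next to each other, a readthrough gene named HOXA10-HOXA9 spans both, and the antisense gene HOXA10-AS and the microRNA gene MIR196B lie within that span. Which of these transcripts the bright probes bound was not tested, since the probe sequences were not used here. Detection of HOXA9 and HOXA10 therefore rests on 1 probe each, and with every probe of a gene required, neither counted as detected on either array.

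HOXA5, a gene of the middle of the cluster known for lung and cervical development, was detected in substate 2 only. Its single probe read 5.32 ± 2.94 in substate 1 and 19.3 ± 3.60 in substate 2. The substate 2 value lay just above the lowest signal of any probe well above background on that array (15.03) and was brighter than only 2.11% of such probes. Because the substate 1 value was not well above background, only a bound can be given. Set against the lowest detected signal of the substate 1 array (14.5), HOXA5 was 1.52-fold higher in substate 2 (0.61 on the log2 scale). Spot error was left out of this bound, so it is not a strict lower limit. Normexp background correction replaces the scanner software's own and adds 50 to each intensity. With it, the HOXA5 bound fell to 0.31 on the log2 scale and the probe's Z-score was no longer past the limit given below. One negative control spot on the substate 2 array reached 33.5, above HOXA5, and the next highest reached 11.48.

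No HOX probe was shown to differ by 2-fold. Among the 33166 probes of the array that were well above background on at least 1 array, 1.55% were higher in substate 2 by at least 2-fold and 1.67% were lower by as much. Of the 3 HOX probes that could be judged in this way, 0 were higher and 0 were lower. HOXA5 entered by its bound, which does not show that its difference was under 2-fold. The difference between its 2 readings was 2.05 on the log2 scale, with the substate 1 reading not well above background. The genes measured on both arrays, HOXA9 and HOXA10, had a median difference of 0.09 on the log2 scale, and the 14108 protein-coding genes measured on both arrays had a median of 0.10 with an SD of 0.37.

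The Z-score of the study sets each difference against the mean and SD over all 58201 probes, detected or not. By this measure 3.03% of all probes exceeded 2 in the direction of substate 2 and 3.3% in that of substate 1. Of the 44 HOX probes 1 did so in each direction, HOXA5 with a Z-score of 3.12 and HOXD3, an anterior gene of the HOXD cluster, with -2.23. HOXD3 read 12.5 ± 3.83 in substate 1 and 4.32 ± 4.33 in substate 2 and was well above background on neither array, so no fold is given for it. HOXC6, at 1.96, lay just inside the upper limit, with 5.44 ± 3.01 in substate 1 and 11.9 ± 3.33 in substate 2, neither of them well above background.

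The remaining probes formed a floor with little structure. The 42 undetected HOX probes of substate 1 read 2.88 to 12.5 with a median of 3.56, and the 41 of substate 2 read 2.96 to 16.8 with a median of 3.61. The lowest signal of any probe well above background was 14.5 and 15.03 on the respective arrays. For 25 of the 44 probes the signal was not significantly above the local background on either array by the weaker of the flags set by the scanner software. These read 2.88 to 3.96 in substate 1 and 3.01 to 4.82 in substate 2, and in each case the signal was 0.993 to 0.997 times the spot's own error. They included every probe of 19 members, namely HOXA3, HOXA11, HOXA13, HOXB3, HOXB5, HOXB6, HOXB7, HOXB8, HOXB13, HOXC5, HOXC10, HOXC11, HOXC12, HOXD1, HOXD4, HOXD8, HOXD10, HOXD12 and HOXD13.

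The other undetected probes carried the weaker flag on at least 1 array, and in part read as low as those without it. Probes of 8 members, HOXA4, HOXB2, HOXB4, HOXC4, HOXC6, HOXC9, HOXD9 and HOXD11, carried the weaker flag on both arrays without being well above background. HOXD9 and HOXD11, which act in limb patterning, were the highest of them on each array, with HOXD9 at 12.4 ± 3.88 and 16.8 ± 4.10 and HOXD11 at 12.5 ± 4.03 and 16.6 ± 4.13. The second HOXD9 probe read 3.03 and 3.19. Another 8 members, HOXA2, HOXA6, HOXA7, HOXB1, HOXB9, HOXC8, HOXC13 and HOXD3, carried the flag on the substate 1 array only, and 0 probes carried it on the substate 2 array only.

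With HOXA5, HOXA9 and HOXA10 included, 19 of the 44 HOX probes (43.2%) carried the weaker flag in substate 1 and 11 (25.0%) in substate 2, whereas 76.0% and 73.3% of all probes did. The background itself differed between the arrays. The 95th percentile of the 308 negative control spots was 4.03 in substate 1 and 4.31 in substate 2, and 15 of 42 undetected HOX probes (35.7%) lay above it in substate 1 and 10 of 41 (24.4%) in substate 2. The part of the array background in the smaller number for substate 2 was not tested. HOX probes near background on both arrays had a median normalised difference of 0.28, and all 25035 such probes had one of 0.27. The difference was above 0 for 34 of the 41 HOX probes (82.9%) and for 73.5% of all such probes, and whether these shares differ was not tested.

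By cluster, all detected members lay in HOXA. HOXA had 2 of 10 genes detected in substate 1 and 3 of 10 in substate 2, and HOXB, HOXC and HOXD had 0 on either array. The undetected probes of HOXB reached 7.44 in substate 1 and 10.05 in substate 2, those of HOXC 7.18 and 11.9, and those of HOXD 12.5 and 16.8. By position, 0 of the 11 anterior members (paralogue groups 1 to 4) were detected on either array. Of the 11 members of groups 5 to 8, 0 were detected in substate 1 and 1 in substate 2, and of the 16 members of groups 9 to 13, 2 were detected on each array. HOXA9 had 3 paralogues on the array (HOXB9, HOXC9 and HOXD9), HOXA10 had HOXC10 and HOXD10, and HOXA5 had HOXB5 and HOXC5, and none of these was detected.

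The genes next to the clusters were expressed. Of the 24 protein-coding genes that were the 3 nearest named ones on each side of each cluster, 22 were detected on both arrays. Over all protein-coding genes the share was 77.4%. The brightest signals of the 22 ran from 15.8 to 77841 in substate 1 and from 19.5 to 90301 in substate 2. The exceptions were EVX2, a homeobox gene next to HOXD13 that read 2.88 and 4.67, and NFE2L2, which read 3.68 and 4.20. EVX1, the homeobox gene next to HOXA13, read 1175 in substate 1 and 1290 in substate 2, a normalised difference of 0.32 on the log2 scale. HOXA13, between EVX1 and the bright HOXA10 probe, read 3.25 and 3.52. None of the 22 differed by 2-fold, and their differences ran from -0.12 to 0.70.

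**Figure D2:**
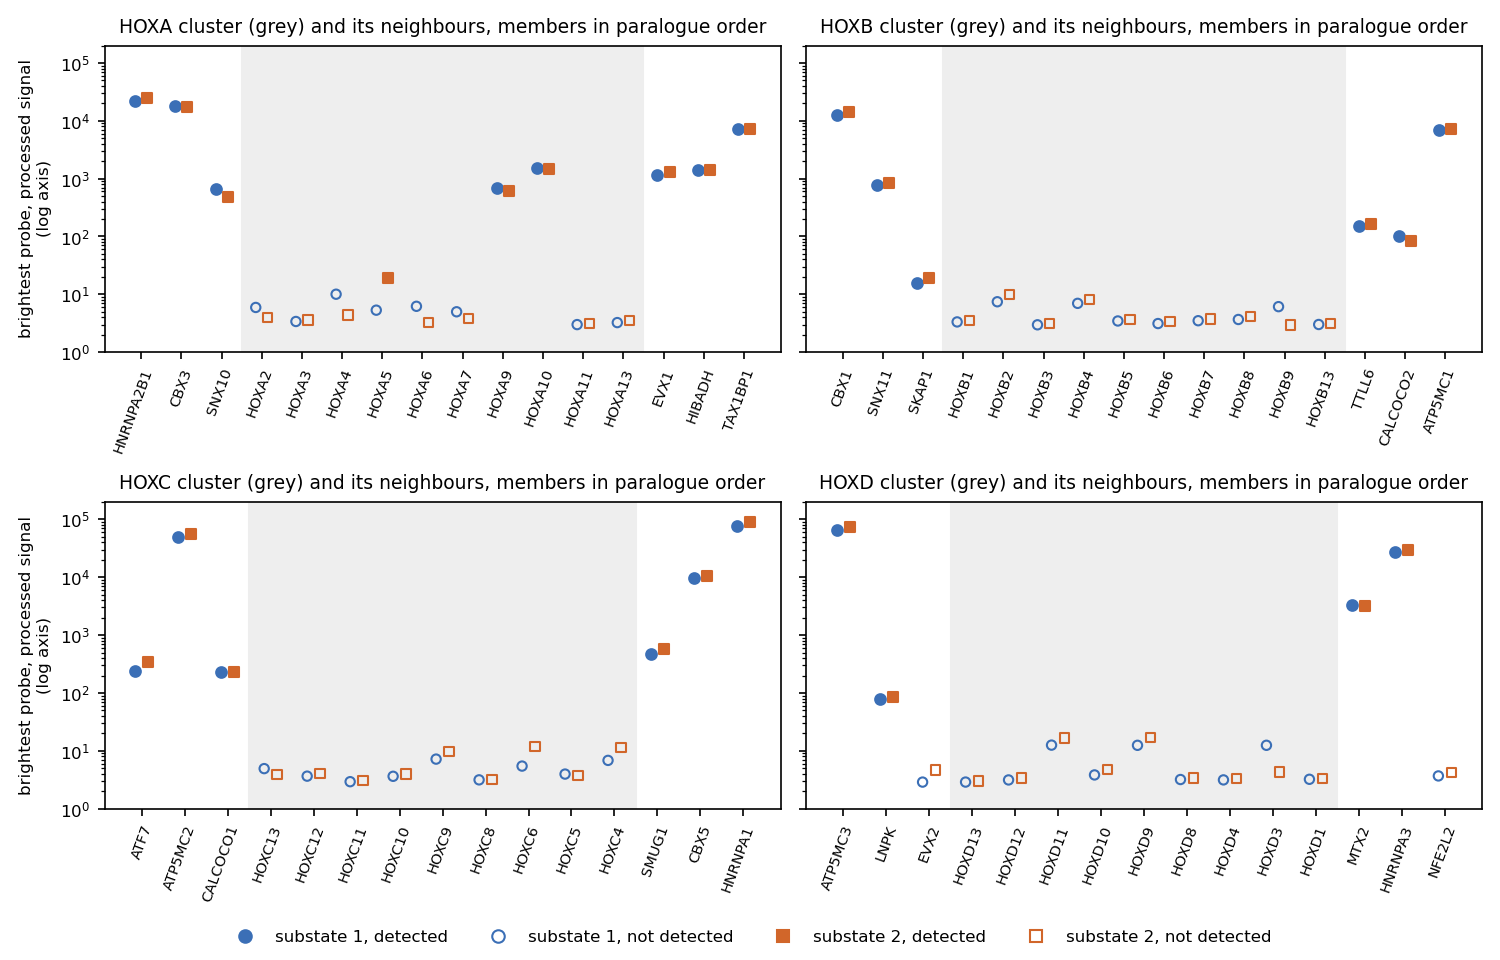
Signal of the brightest probe of each gene (log axis) for the members of each cluster, in order of paralogue number on grey, and for the 3 nearest named protein-coding genes on each side, with substate 1 as circles and substate 2 as squares. Filled symbols are detected genes: 22 of the 24 neighbours are filled on both arrays, and of the 38 HOX genes HOXA9 and HOXA10 are filled on both and HOXA5 in substate 2.

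Some noncoding genes of the clusters were detected at low signals. Of 16 with a named probe, 5 (31.2%) were detected in substate 1 and 3 (18.8%) in substate 2. HOXA10-AS is transcribed from the strand opposite to HOXA10. It read 40.4 in substate 1 and 14.3 in substate 2, where it was not well above background. By its bound it was 2.36-fold lower in substate 2. That bound fell to 0.25 on the log2 scale with normexp background correction. HOXB-AS3 (109 and 117 at 1 probe, 3.26 and 3.51 at the other), HOXC-AS2 (53.7 and 51.2) and HOTAIR, an antisense RNA of the HOXC cluster (44.1 and 37.8 at 1 of its 4 probes), were detected on both arrays. A second HOTAIR probe was detected in substate 2 only (12.1 and 18.9). HOXC13-AS read 20.6 and 12.3 and was detected in substate 1 only. HOTTIP and HOTAIRM1, which lie near the ends of the HOXA cluster, were not detected on either array, and neither were HAGLR and HAGLROS of the HOXD cluster. The coding genes beside those detected in HOXB and HOXC, namely HOXB5, HOXB6, HOXC9, HOXC10, HOXC11, HOXC12 and HOXC13, were not detected. Whether a probe also bound an overlapping transcript was not tested.

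Genes that act upstream of the clusters were present in part. CDX factors activate HOX genes in the tail bud, and of the 3, CDX1 was detected by 1 of its 3 probes (251 and 243, a difference of 0.14, the largest among the ParaHox genes measured on both arrays), while CDX2 and CDX4 were not detected. In the list for caudal epiblast and presomitic mesoderm, where HOX genes are first switched on, 6 of 14 genes were detected on each array. TBXT, the brachyury gene, read 13.6 and 10.2 and was not detected. MESP1, a factor of early mesoderm, read 17.2 in substate 1, where it was not well above background, and 33.3 in substate 2. The difference between these readings was 1.14 ± 0.42 on the log2 scale (2.21-fold), which is not a lower limit. With normexp background correction the MESP1 value fell to 0.15 on the log2 scale. TBX6, a factor of presomitic mesoderm, pointed the other way, with 23.3 in substate 1 and 15.1 in substate 2, where it was not well above background. Its difference was -0.44 ± 0.47 on the log2 scale, which is within the spot error. WNT3A, a ligand of the tail bud, had a difference of -0.22 over its 2 probes.

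Retinoic acid is the classical inducer of anterior HOX genes. Of 17 genes for its handling and receptors, 14 (82.4%) were detected in substate 1 and 13 (76.5%) in substate 2. These shares were near the 80.1% and 78.6% of all protein-coding genes. STRA6, a cell-surface receptor that takes up retinol, had the largest difference, 1617 in substate 1 and 2604 in substate 2 at its brighter probe, or 0.76 on the log2 scale over its 2 probes. CYP26A1, which breaks down retinoic acid, read 487 and 280, a difference of -0.61. The receptor gene RARB is itself a target of retinoic acid. It read 25.9 in substate 1 and 13.9 in substate 2, where it was not well above background. By its bound it was 1.51-fold lower in substate 2. That bound fell to 0.12 in size with normexp, and the other RARB probe read 3.70 and 4.98, near background on both arrays. ALDH1A2, the main enzyme that makes retinoic acid in the embryonic trunk, was not detected (2.98 and 3.21).

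Genes for the partner proteins of HOX factors were detected about as often as other genes. Of 8 genes of the TALE class with a named probe, 6 (75%) were detected on both arrays, among them PBX2, PBX3, PBX4, PKNOX1 and MEIS3. Over all protein-coding genes the share was 77.4%. Protein was not measured. PBX4 had the largest difference, -0.37 (617 and 420), just ahead of PKNOX1 at -0.36 (2060 and 1409). Their order depended on the processing, since among the alternatives PKNOX1 reached -0.45 and PBX4 no further than -0.40. MEIS1 was not detected (3.00 and 3.35), nor was MEIS2, which read 3.25 in substate 1 and 16.2 in substate 2 and had a Z-score of 3.85 without being well above background on either array.

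Genes for the repressors and activators of the clusters were detected almost in full, where 77.4% of all protein-coding genes were measured on both arrays. All 11 genes of Polycomb repressive complex 2 with a named probe and all 17 of complex 1 were detected on both arrays, and none differed by 2-fold. EZH2, the main histone methyltransferase of complex 2 in dividing cells, read 3376 and 3028, with a difference of 0.03 whose sign turned under 3 of the 6 alternatives. EZH1, its counterpart, had the largest difference within complex 2, at -0.47 (900 and 572), and CBX8, a reader of the Polycomb mark, the largest within complex 1, at 0.75 (32.2 and 47.5). PHC2, a structural subunit of complex 1, followed at 0.71 over its 2 probes (2233 and 3400 at the brighter), and with normexp CBX8 fell to 0.41 and below PHC2. The medians were 0.03 for complex 2 and 0.12 for complex 1, against 0.10 for all protein-coding genes. Of 13 genes of the MLL complexes and the demethylases that remove the Polycomb mark, 12 were detected on both arrays, with a median of 0.17. MLLT3, a partner of MLL in transcription elongation, had the largest difference, 0.94 as the mean of a probe at 0.53 and a probe at 1.36. KDM6B was not detected and read 4.28 in substate 1 and 13.5 in substate 2.

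Homeobox genes of the anterior nervous system, which lies in front of the HOX domain, were detected in part. Of 15 forebrain and midbrain genes, 8 (53.3%) were detected in substate 1 and 9 (60.0%) in substate 2. LHX2, a forebrain and eye field factor, read 86.7 in substate 1 and 381 in substate 2, 5.01-fold higher, and was the only one of the 15 that passed the 2-fold limit. RAX, another eye field factor, fell just under that limit, with 24.2 and 42.5 at 1 of its 2 probes and a difference of 1.00. RAX passed the limit with median centring, quantile normalisation and loess centring, reaching at most 1.05. With normexp background correction the differences were 1.59 for LHX2 and 0.33 for RAX. OTX1 read 125 and 59.5 at the only one of its 2 probes that was detected, a difference of -0.89. Of 5 hindbrain genes, which share their territory with the anterior HOX genes, 3 were detected on both arrays. EGR2, which activates HOX paralogue group 2 in the hindbrain, read 79.3 and 57.0, while HOXA2 and HOXB2 were not detected.

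**Figure D3:**
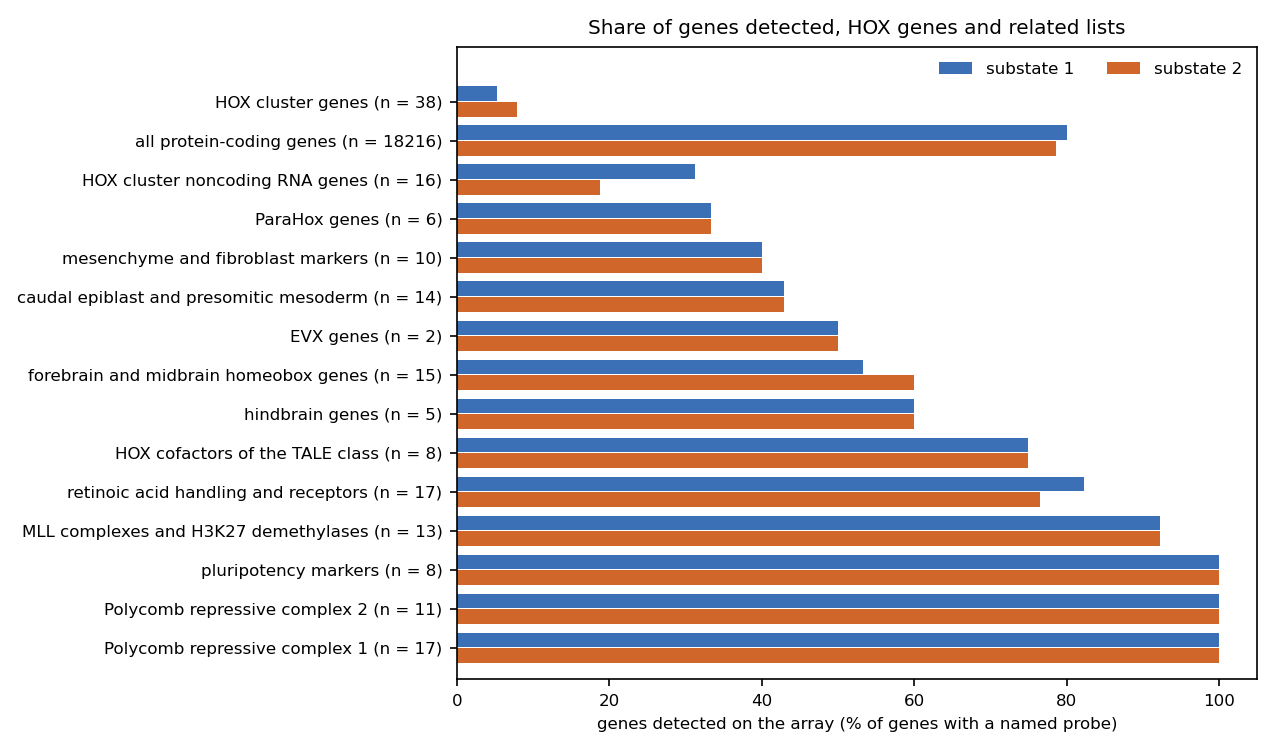
Share of genes detected on each array (bars from 0, % of genes with a named probe) for the HOX genes, all protein-coding genes and the related lists. The HOX bars stand at 5.26% in substate 1 and 7.89% in substate 2, below each related list and below the 80.1% and 78.6% of all protein-coding genes.

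**Figure D4:**
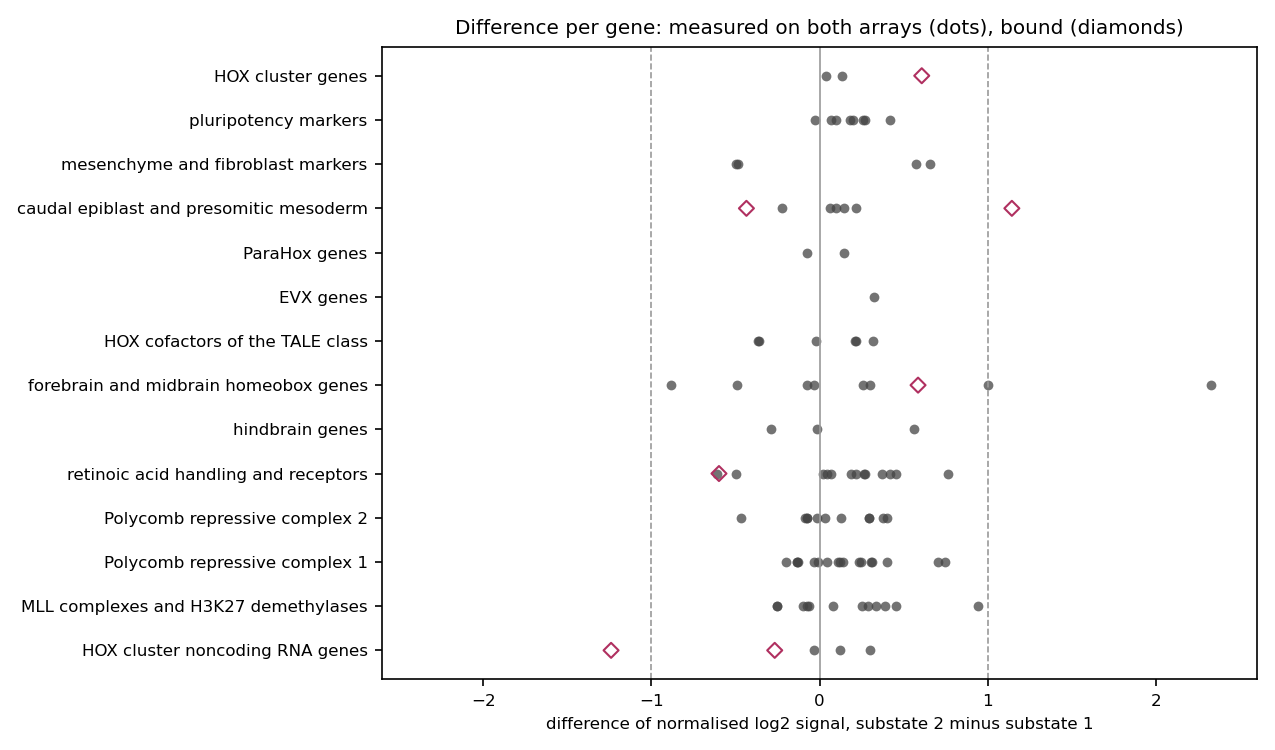
Difference of normalised log2 signal (substate 2 minus substate 1) per gene for the HOX genes and the related lists, with dots for genes measured on both arrays, diamonds for bounds of genes well above background on 1 array only, and dashed lines at 2-fold. HOXA9 and HOXA10 lie at 0.04 and 0.13 and the HOXA5 bound at 0.61. The points beyond the lines are LHX2 at 2.32, MESP1 at 1.14 and the HOXA10-AS bound at -1.24. The MESP1 diamond is the plain difference of its 2 readings.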

How the data were processed

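The authors deposited the scanner output of 2 single-colour arrays, 1 per substate, with an intensity for each spot. According to the deposited headers, Feature Extraction 11.5.1.1 (protocol GE1_1105_Oct12) had subtracted the background, and spots near background hold a small positive intensity of about their own error. The authors also deposited log2 values scaled to each array's 75th percentile, which differed from those computed here by 1 constant per array within 0.01. The arrays shared 1 slide and 1 scan.

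Here the processed intensity (set to at least 1) was put on the log2 scale, spots that were not outliers were averaged per probe, and the array's 75th percentile was subtracted. Probes were named by RefSeq accession in a table for GRCh38.p14, which matched 31104 of 58201 probes (53.4%). The array was annotated on hg19, so coordinates are printed only for the promoter sequences. A gene's difference is the mean over its probes with both arrays well above background. A probe well above background on 1 array got a bound, set against its own value on the dim array or that array's lowest detected signal, whichever was higher. Where its own value was the higher, as for MESP1 and TBX6, the bound is the plain difference of the 2 readings and not a lower limit. The other bounds are not strict limits either. They leave out spot error, and some undetected probes read above the lowest detected signal. Probes well above background made up 55.6% for substate 1 and 52.8% for substate 2. Spot errors are those of the scanner software and cover neither cells nor labelling, and the number of arrays limits the precision. With 1 array per group no test was made.

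Members and related lists were chosen with earlier results of these data known. All members are accounted for, and from each list the genes past 2-fold, or else the one of largest size, are named, except where a gene is not reported here. Other genes of the lists (the CDX, RAR, EZH, MEIS, OTX and EGR genes and others) were named after their values were seen. Alternatives were median centring, quantile normalisation, loess centring (span 0.3), normexp background correction (offset 50), the deposited log2 values, outlier spots kept, and other flags and limits. They were run with limma 3.58.1 in R 4.3.3 where it was needed, and all else with Python 3.11.15. The calculations were tested on simulated data.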

Additional observations from a re-analysis of the deposited data

How the results depend on the processing

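No paired analysis was possible because each group had 1 array. A value counted as moved where it shifted by more than 0.072 on the log2 scale, and a count where it changed by over 1.5 times. The 0.072 is the SD that spot noise gives a difference for probes well above background. Replicated probes not well above background varied more between spots, with median SDs of 0.70 in substate 1 and 0.35 in substate 2. The limit is therefore narrow for dim values such as the HOXA5 bound. The number of HOX genes detected depended on the flag. By the weaker flag of the scanner software it was 19 in substate 1 and 11 in substate 2, with every probe of a gene required it was 0 and 1, and with a signal above the highest negative control spot it was 7 in substate 1 (2 in substate 2, where that spot was brighter). The 0 HOX probes past 2-fold in either direction stayed 0 under the 6 alternatives of centring, normalisation, background correction, deposited values and outlier spots. With a limit of 1.5-fold 1 probe was higher, and with the weaker flag 2 were higher and 2 lower. For the Z-score, 2 HOX probes were past the upper limit with quantile normalisation and with loess centring. With the SD taken from the median absolute deviation 3 probes were past the upper and 4 past the lower limit. With normexp, and with the Z-score taken over probes detected on both arrays, 0 were past either limit, and over probes detected on 1 array or more 0 were past the lower one. The median difference of HOXA9 and HOXA10 was -0.0040 with normexp and 0.02 to 0.13 under the other alternatives. Among the 139 related genes, 2 were 2-fold higher and 1 lower. At the same limit 1.55% of the array's detectable probes (33166) were higher and 1.67% lower. Whether the related genes differ from these shares was not tested. The 139 include genes detected on neither array, which could not be called higher or lower. MESP1 was among the 2 by the plain difference of its readings. With median centring, quantile normalisation and loess centring 3 related genes were higher, and with normexp 1 was higher and 0 were lower. With a limit of 1.5-fold 9 related genes were higher and 4 lower. Naming by a gene symbol column was not run, since the scanner files used here have none. The causes of these shifts were not tested, except that a looser limit or flag admits more probes by construction. Normexp adds an offset of 50 to each intensity, which by construction narrows differences between dim signals. How much of each fall with normexp comes from that offset was not tested. Signal over background limits the results for 35 of the 38 genes, whose signals, at most 12.5 in substate 1 and 16.8 in substate 2, were not well above background.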
